A study of Mus musculus with 2 samples.

Results

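The cardiac muscle genes are 10 genes known for building or specifying the muscle of the heart, and they were chosen by symbol from the 21937 genes measured: Tnnt2, Tnni3, Actc1, Myh6, Myh7, Myl2, Myl7, Myl4, Nkx2-5 and Hand2. The rule that names them uses no measured value, but they were chosen with earlier results of these data known. All 10 were present among the features, and their unique molecular identifiers (UMIs, each standing for 1 captured transcript) were counted in 5678 annotated cells of 16 cell types. The question was whether heart cells are present, above all within the 644 cells annotated as Myoblast/Cardiomyocyte, the type whose name holds both kinds of muscle.

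The cells came from E11.5 mouse embryos that carried an EGFP cassette linked to a DNA barcode, inserted with the piggyBac transposon and driven by the CAG promoter. F0_8 and F0_9 were founder embryos, which grew from B6J eggs that had received transposase mRNA by electroporation and the donor DNA by microinjection. F1_1 came from 1 embryo of the F1 generation, and F1_mix pooled cells of 2 other F1 embryos as an artificial mosaic. Embryos were minced and trypsinized, and each of the 4 suspensions was tagged with its own oligo. All were passed through a cell strainer, sorted to remove debris and run together as 1 single-cell library. Every suspension carried the transgene, so there was no wild-type control, and the founder and F1 groups held 2 suspensions each.

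The 5678 cells held 68972620 gene UMIs, with between 16052917 and 19160116 in each suspension. The Myoblast/Cardiomyocyte cells numbered 99 for F0_8 and 115 for F0_9, against 210 for F1_1 and 220 for F1_mix, and their median depth ran from 17030 to 19354 UMIs per cell. No barcode was shared between suspensions. Levels are given as UMIs per 10000 gene UMIs, pooled over the cells named. Intervals are exact 95% intervals (Poisson for levels, Clopper-Pearson for shares) and cover counting error only. Where no cell was found, the share that 3 cells would give is printed as the limit, and it concerns cells with a UMI, since a cell can express a gene without a captured UMI.

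As background, a heart muscle cell contracts by sliding thick filaments of myosin along thin filaments of actin, and troponin on the thin filament opens the sites of contact when calcium rises. Several of these proteins are not private to the heart: embryonic skeletal muscle uses cardiac actin, cardiac troponin T and the embryonic light chain Myl4 before it turns to its adult isoforms. Others, such as the myosin heavy chain Myh6, the regulatory light chains Myl2 and Myl7 and the inhibitory troponin Tnni3, are taken as marks of cardiac muscle. At E11.5 the mouse heart has been beating for days and holds atrial and ventricular muscle, a lining endocardium and an outer epicardium.

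Among the members, Actc1 (ENSMUSG00000068614) encodes cardiac alpha actin and Tnnt2 (ENSMUSG00000026414) the cardiac troponin that binds tropomyosin. Tnni3 (ENSMUSG00000035458) encodes cardiac troponin I. Myh6 (ENSMUSG00000040752) and Myh7 (ENSMUSG00000053093) encode the alpha and beta cardiac myosin heavy chains, and Myh7 also serves slow skeletal fibres. Myl2 (ENSMUSG00000013936) is the ventricular and slow-muscle regulatory light chain, Myl7 (ENSMUSG00000020469) the atrial one, and Myl4 (ENSMUSG00000061086) an atrial and embryonic essential light chain. Nkx2-5 (ENSMUSG00000015579) and Hand2 (ENSMUSG00000038193) are transcription factors needed to form the heart, and both also act in other embryonic tissues, Hand2 in the limb buds, branchial arches and sympathetic ganglia.

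In the RefSeq annotation of GRCm38.p6, Actc1 lies on chr2:114047282-114052875 and Tnnt2 on chr1:135836315-135852268. Myl7 and Myl4 share chromosome 11, at chr11:5896637-5898782 and chr11:104546017-104587215. Myh6 at chr14:54941921-54968017 and Myh7 at chr14:54970684-54994626 are neighbours on the minus strand, and 193 of the 50-base windows in the last 500 bases of their transcripts are identical. That is 13.4% of the windows of Myh6 and 22.5% of those of Myh7, so counts of this pair are uncertain, while the other 8 members shared no such window with one another.

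The sequences just upstream of 3 members are shown because the results turn on them: Actc1 and Tnnt2 were found in the same cells, and Myl7 was found in others. Each is the 200 bases before the start of the gene, from RefSeq GRCm38.p6, written 5′ to 3′ on the gene's own strand. Capitals mark a CAGCTG, the E-box form that myogenic factors such as Myod1 and Myog are known to bind, or a CArG box, the site of serum response factor.
Actc1, chr2:114052876-114053075, minus strand: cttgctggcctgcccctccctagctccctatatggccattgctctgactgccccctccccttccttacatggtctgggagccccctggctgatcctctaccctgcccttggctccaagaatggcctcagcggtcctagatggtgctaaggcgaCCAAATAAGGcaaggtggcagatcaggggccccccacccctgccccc
Tnnt2, chr1:135836115-135836314, plus strand: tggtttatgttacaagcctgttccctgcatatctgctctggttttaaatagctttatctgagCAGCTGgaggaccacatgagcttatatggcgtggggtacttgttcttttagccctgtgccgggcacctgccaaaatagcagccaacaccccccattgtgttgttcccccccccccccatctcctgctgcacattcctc
Myl7, chr11:5898783-5898982, minus strand: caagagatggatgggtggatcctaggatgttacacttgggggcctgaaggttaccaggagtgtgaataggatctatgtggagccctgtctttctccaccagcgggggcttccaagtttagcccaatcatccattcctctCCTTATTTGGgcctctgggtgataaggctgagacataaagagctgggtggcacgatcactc

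Motifs were searched on both strands in windows from 250 bases before to 50 after each start. A CArG box was in 2 of the 10 members, Actc1 and Myl7, and in 1.63% of all 32851 windows. CAGCTG was in Tnnt2 and Myl2 and in 16.3% of all windows. Matches of CAGCTG are also matches of the looser E-box CANNTG, which 9 of the 10 members and 72.3% of all windows held. The GATA motif AGATAA was in 3 of the 10 members and 11.2% of all windows, and the MEF2 motif in none of the 10 and 3.19% of all windows. A match of letters is a description of the window and was not tested as a site of binding.

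No annotated cell met the rule for a heart muscle cell. The rule asked for a UMI of at least 3 of the 6 more heart-restricted members: Myh6, Myh7, Myl2, Myl7, Tnni3 and Nkx2-5. It was met by 0 of 5678 cells, which allows a share of up to 0.0528% (exact 95% upper limit 0.0649%). This limit takes in shallow cells that could hardly show 3 such genes, since 4601 of the 5678 had 2000 or more gene UMIs. The median was 721.5 UMIs in Endodermal Progenitor, 998 in Midgut, 1241 in Foregut and 1674 in Hepatocyte cells. Among Myoblast/Cardiomyocyte cells the rule was met by 0 of 644, which allows up to 0.466% (exact 95% upper limit 0.571%). Of all annotated cells, 5471 held none of the 6 genes, 203 held 1 and 4 held 2. Within Myoblast/Cardiomyocyte these numbers were 584, 58 and 2. By this rule, which leaves out Tnnt2, Actc1 and Myl4, the annotated name Cardiomyocyte was not borne out. The cells are called by the full annotated name below. The 328 barcodes that the authors assigned to a suspension but left out of the annotation held none meeting the rule either. A single barcode that was assigned to no suspension did meet it, with 5 of the 6 genes and 252 UMIs of the members, and its oligos came from several suspensions. It therefore belongs to no group and entered no comparison.

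The 4 cells with 2 of the 6 genes differed in what else they held. The first, a Myoblast/Cardiomyocyte cell of F1_1 with 31000 UMIs, held 2 UMIs of Nkx2-5 and 1 of Tnni3 beside 2 of Myod1 and 3 of Myf5, the factors that commit cells to skeletal muscle. Another, a Myoblast/Cardiomyocyte cell of F1_mix with 17049 UMIs, held 1 of Myh7 and 2 of Tnni3 beside 3 of Myod1 and 4 of Myog. The third was a Gut Mesenchyme/Amniotic Mesoderm cell of F0_9 with single UMIs of Myh6, Tnni3 and Hand2. The last was a cell of F1_1 annotated as Hepatocyte that held 7 UMIs of Myl7, 8 of Actc1, 2 of Tnnt2, 2 of Myl4 and 1 of Tnni3. In it Gata4 had 3 UMIs, Tnnc1 3, Gata6 2, Myl3 2 and Tbx20 1, in a total of 3592. It also held 5 of the 6 epicardium genes listed, with 4 UMIs of Tbx18, 2 of Upk1b and single ones of Wt1, Tcf21 and Aldh1a2. It held more of the cardiac genes than any other of the 4 but not Myh6, Myh7, Myl2 or Nkx2-5.

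The members fell into groups by abundance and place. Actc1 had 2623 UMIs in 111 annotated cells and 93.1% of them lay in Myoblast/Cardiomyocyte. Tnnt2 had 380 UMIs in 48 cells, 88.9% of them in that type, and Myl4 had 509 in 134 cells, 70.9% of them there. Nkx2-5 had only 50 UMIs in 14 cells, 84% of them in the type. Hand2 was in the most cells, with 1403 UMIs in 471, of which 33.4% lay in the type. The remaining members had most of their UMIs elsewhere: Myl7 had 10.4% of its 164 in the type, Tnni3 28.1% of 114, Myh7 31.4% of 35, Myh6 16.7% of 12 and Myl2 none of 10.

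**Figure D1:**
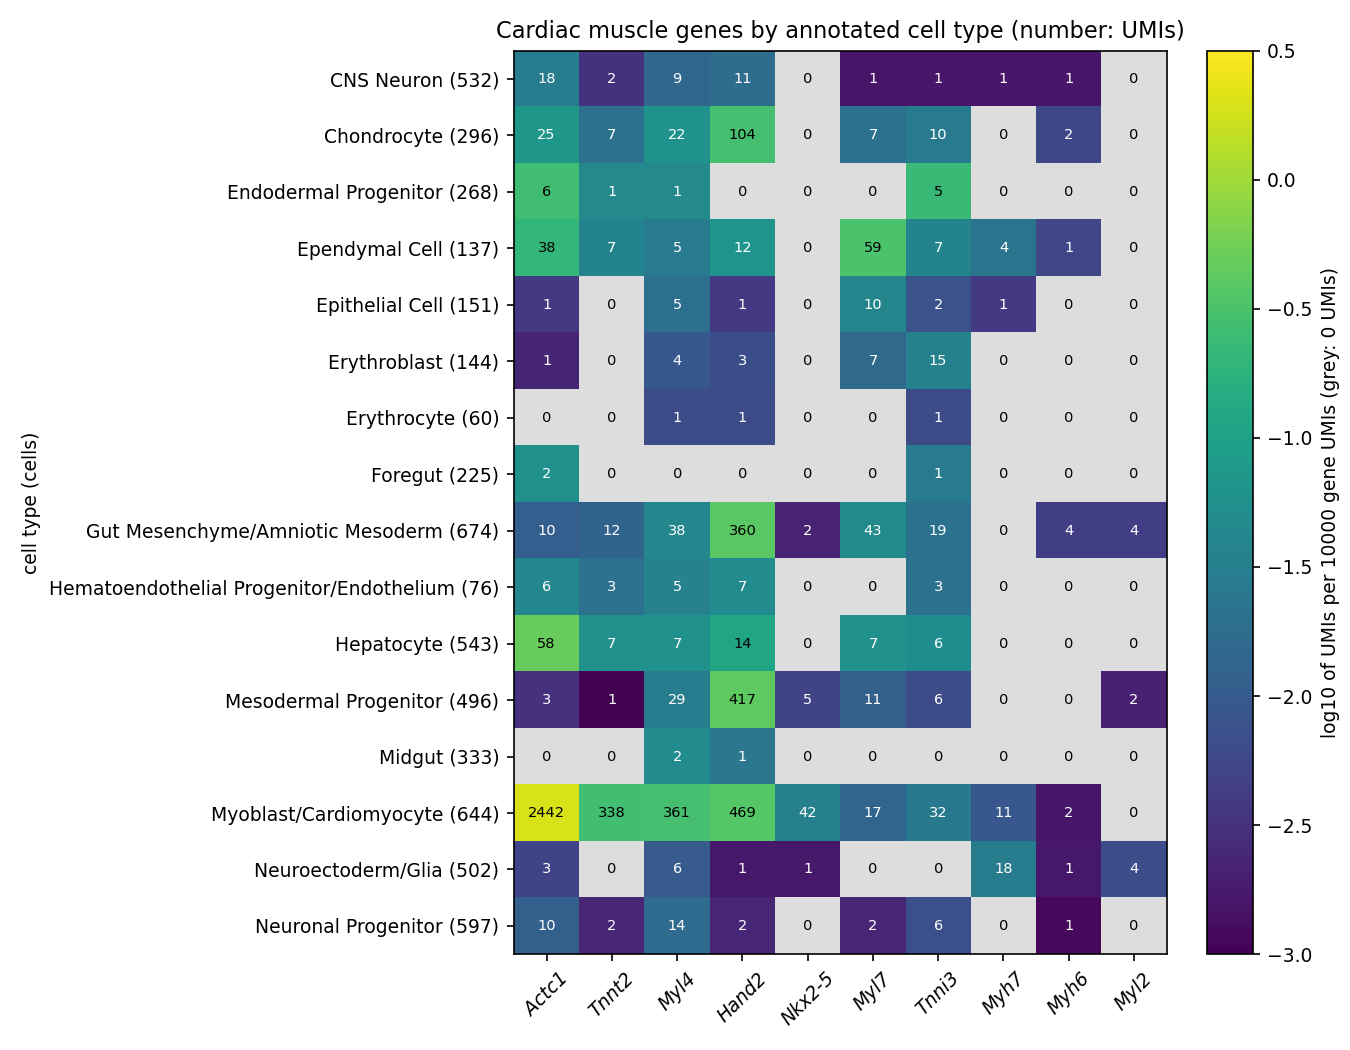
Level of each cardiac muscle gene in the 16 annotated cell types, with genes across and types (with their numbers of cells) down. Colour is log10 of UMIs per 10000 gene UMIs, grey marks 0 UMIs, and the number in each field is the UMI count. Actc1, Tnnt2 and Myl4 are highest in the row of Myoblast/Cardiomyocyte cells, Hand2 is of like level in 3 types, and Myl2 has no UMI in the Myoblast/Cardiomyocyte row.

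The UMIs of the contractile members sat in very few cells. For Actc1, the 10 highest of the 5678 cells held 71.3% of all UMIs, and for Tnnt2 81.1%. The 10 highest cells held 67% of the UMIs of Myl4 and 66.5% of those of Myl7, against 9.41% for Hand2. Within Myoblast/Cardiomyocyte, Actc1 was detected in 43 cells (6.68%), Tnnt2 in 23 (3.57%) and Myl4 in 38 (5.90%). All other cells of the type held no Actc1 UMI. The levels of the type, 1.97 (1.89 to 2.05) for Actc1, 0.273 for Tnnt2 and 0.291 for Myl4, are thus means over a few cells with many UMIs and many cells with none.

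Those few cells carried the regulators of skeletal muscle. A cell was said to meet the skeletal rule when it held a UMI of at least 2 of Myod1, Myf5, Myog, Mymk, Chrna1 and Chrng, which are 3 myogenic factors, the fusion factor myomaker and 2 subunits of the muscle acetylcholine receptor. The rule used none of the members and was set after the values of these genes had been seen. It was met by 78 of the 644 Myoblast/Cardiomyocyte cells (12.1%, 9.69 to 14.9) and by 7 cells of all other types. The 78 cells were deeper than the other 566 of the type, with medians of 23648 and 17743 UMIs.

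Actc1 had 2420 UMIs in 30 of the 78 cells and 22 UMIs in 13 of the other 566, levels of 12.8 and 0.0209, so 99.1% of the Actc1 of the type lay in cells meeting the skeletal rule. Tnnt2 had 333 UMIs in 19 of the 78 cells and 5 in 4 of the others, levels of 1.77 and 0.00475. Myl4 followed with 330 UMIs in 14 of the 78 and 31 in 24 of the others. All 14 cells of the type with 3 or more Tnnt2 UMIs met the rule, as did 22 of the 24 with 3 or more of Actc1 and 10 of the 11 with 3 or more of Myl4. All 14 of the first held Myog, the factor of terminal skeletal differentiation, as did 23 of the 24 and 10 of the 11.

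Hand2 lay on the other side of the split. It had 0 UMIs in the 78 cells and 469 UMIs in 134 of the other 566 (23.7%). In the type, 2 cells held both Actc1 and Hand2, while 17 held both Actc1 and Tnnt2 and 13 both Actc1 and Myl4. The heart-restricted members stayed low on both sides of the rule. Tnni3 had 14 UMIs in 13 of the 78 cells and 18 in 17 of the others. Myl7 had 2 UMIs against 15 in 11 cells, Myh6 none against 2, and Myl2 none in either. Myh7, which slow skeletal fibres also use, had 10 UMIs in 6 of the 78 cells and 1 UMI in the others.

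**Figure D2:**
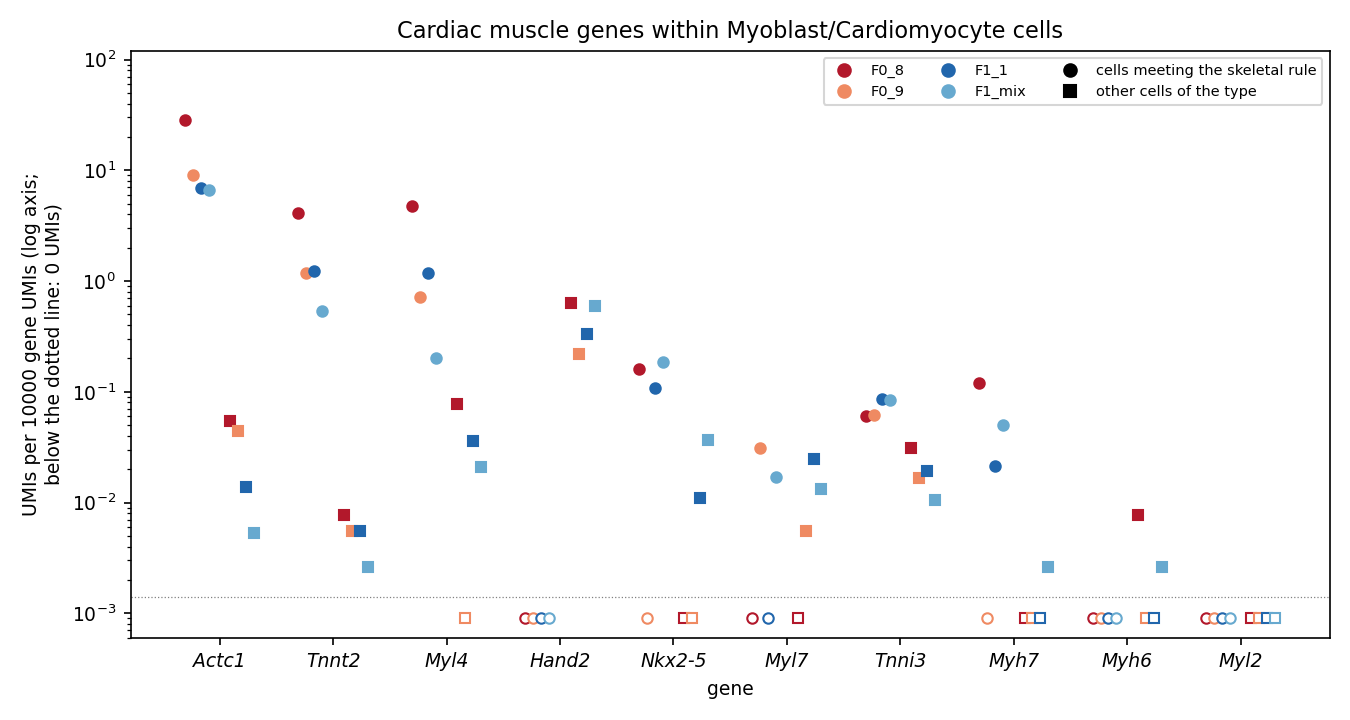
Level of each member (UMIs per 10000 gene UMIs, log axis) in the Myoblast/Cardiomyocyte cells of each suspension, split into cells that met the skeletal rule (circles) and the other cells of the type (squares); open symbols below the dotted line had 0 UMIs. In all 4 suspensions Actc1 and Tnnt2 lie higher in the cells that met the rule, and Hand2 has no UMI there.

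The same split held in each suspension. In the cells that met the rule, Actc1 reached a level of 28.2 in the founder F0_8 and 9.05 in the founder F0_9, against 6.93 in F1_1 and 6.68 in F1_mix. F0_8 stood highest and the other 3 lay close together. In each of the 4, the 2 highest cells held from 46.2% to 88.1% of that Actc1, which leaves every level resting on a handful of cells. For Tnnt2 in the same cells, the founders had 4.12 (F0_8) and 1.17 (F0_9) and the F1 suspensions 1.22 (F1_1) and 0.539 (F1_mix). Its highest cell held 89 UMIs, in F0_8, and the highest Actc1 cell held 377, also in F0_8.

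The 78 cells were then split by whether Actc1 was detected. In the 30 cells with Actc1, Myog had a level of 24.1 and Mymk was in 19 cells. In the 48 cells without it, Myog had a level of 1.13 and Mymk was in 2. Genes of muscle progenitors ran the other way: Pax3 was in 30% of the cells with Actc1 and 75% of those without, Pax7 in 33.3% and 66.7%, and Myf5 in 33.3% and 81.2%. Tnnt2 had a level of 4.86 with Actc1 and 0.0414 without, and Myl4 of 4.82 and 0.0414. Titin (Ttn), the giant spring of the sarcomere, had 11.7 and 0.645. These cells were split by a measured gene, so the values describe them and were not tested.

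Further gene lists were also counted in the 78 cells. The lists of skeletal regulators and of skeletal contractile and fusion genes include the 6 genes of the skeletal rule, among them Myog and Myod1. Their UMIs in these cells were thus partly fixed by the choice of cells. Of 16 skeletal contractile and fusion genes, 16 had a UMI there, led by Tnnt1 (1827 UMIs), Mylpf (1199), Myl1 (682) and Mymx (408). Of 10 skeletal regulators, 10 had one, led by Myog (1765) and Myod1 (651). Of 20 sarcomere and calcium handling genes, 15 had one, led by Tpm1 (2296), Ttn (869), Tnnc1 (376) and Slc8a1 (249), which skeletal muscle or other tissues also use. Ryr2 and Pln, which handle calcium in the heart, and Mybpc3, Xirp1 and Myl3 had 0 UMIs. Others of the list that the heart uses were present: Actn2 had 151 UMIs in 15 of the 78 cells, Cryab 126 in 13, the calsequestrin Casq2 47 in 4, Smpx 28 in 4 and Csrp3 28 in 2. Of 12 cardiac regulators, 5 had a UMI: Mef2c (393), Smyd1 (74), Isl1 (56), Myocd (10) and Tbx20 (1). Gata4, Gata5, Gata6, Tbx5, Hand1, Irx4 and Hey2 had none. In the other 566 cells of the type Irx4 also had none, but Tbx5 had 164 UMIs in 75 cells (13.3%), Gata6 86 in 28 (4.95%), Gata4 56 in 7 (1.24%), Myocd 45 in 11, Hey2 41 in 26, Hand1 28 in 13 and Gata5 14 in 6. In the 5034 cells of the other types Tbx5 was in 6.20%, Gata6 in 4.05% and Gata4 in 1.73%. The hormone genes of the heart, Nppa and Nppb, and the growth factor gene Bmp10 had 0 UMIs in all 644 cells of the type, against 33 UMIs in the other types together.

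The list of limb and branchial arch mesenchyme, led by Twist1, was the reverse. It had a level of 14.0 in the other 566 cells against 1.56 in the 78. Of the lists of other cells, the smooth muscle list had a level of 10.4 in the 78 cells and 0.497 in the other 566, nearly all of it Acta2 (1909 of 1965 UMIs), the smooth muscle actin that embryonic skeletal muscle also uses. Acta2 was in 58 of the 78 cells, Tagln had 56 UMIs, and Myh11 and Cnn1 had 0. The endocardium list had a level of 0.0425 in the 78 cells and the macrophage list 0.0372. The red blood cell list had 15491 UMIs in a single F0_9 cell of the type that held no UMI of any member, and at most 8 in any other cell.

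Hand2 was spread over mesenchymal types. Its level was 0.435 (0.394 to 0.479) in Mesodermal Progenitor, 0.398 (0.358 to 0.441) in Gut Mesenchyme/Amniotic Mesoderm and 0.378 (0.345 to 0.414) in Myoblast/Cardiomyocyte cells, and these 3 intervals overlapped. Chondrocyte cells came next with 0.296 (0.242 to 0.359). It was detected in 22.4%, 22.1%, 20.8% and 13.5% of the cells of these 4 types. In red blood cells, which should lack it and were deeper (median 27491.5 UMIs), it was in 4 of 204 cells (1.96%). Thinned to 5000 UMIs a cell, Hand2 was in 11.9% of Myoblast/Cardiomyocyte cells and 0.495% of red blood cells.

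Nkx2-5 marked a different handful of cells. Of the 14 cells with a UMI, 10 were Myoblast/Cardiomyocyte cells and held 42 of the 50 UMIs, and 5 of the 10 met the skeletal rule. Slow skeletal troponin T (Tnnt1) was in 8 of the 10, Tcf21 in 8, Tbx1 in 6, Myf5 in 6, Myod1 in 5 and Tlx1 in 4. Tbx1 and Tcf21 are known for roles in the muscle of the head, and Tlx1 for the spleen and branchial arches. The 4 cells outside the type all held Isl1, a factor of the second heart field and of other tissues such as motor neurons, with 70 UMIs in all, and 2 of them held Hand2. In all 14 cells, Gata4, Tnnt2, Myh6, Myh7, Myl2 and Myl7 had 0 UMIs. These companion genes were chosen after their values were seen.

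Myl7, the atrial light chain, was found with genes of the epicardium. The 9 cells with 3 or more UMIs held 107 of its 164. F1_1 held 4 of these cells, F1_mix 5 and the founders none. Wt1, the factor of the epicardium and other mesothelia, was in 9 of the 9, and Upk3b, a mesothelial uroplakin, had 68 UMIs in 6 of them. Tbx18 had 46 UMIs, Aldh1a2 46, Gata4 44 and Tcf21 35. Tnnt2 had 13 UMIs in 4 of these cells, while Myh6, Myh7, Nkx2-5, Myl2, Myog and Myod1 had none. Over all annotated cells, the 66 with at least 3 of the 6 epicardium genes held 108 of the 164 Myl7 UMIs, a level of 0.960 against 0.00825 in all others. The highest cells held 27, 26 and 23 UMIs, and they were annotated as Ependymal Cell or Gut Mesenchyme/Amniotic Mesoderm.

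**Figure D3:**
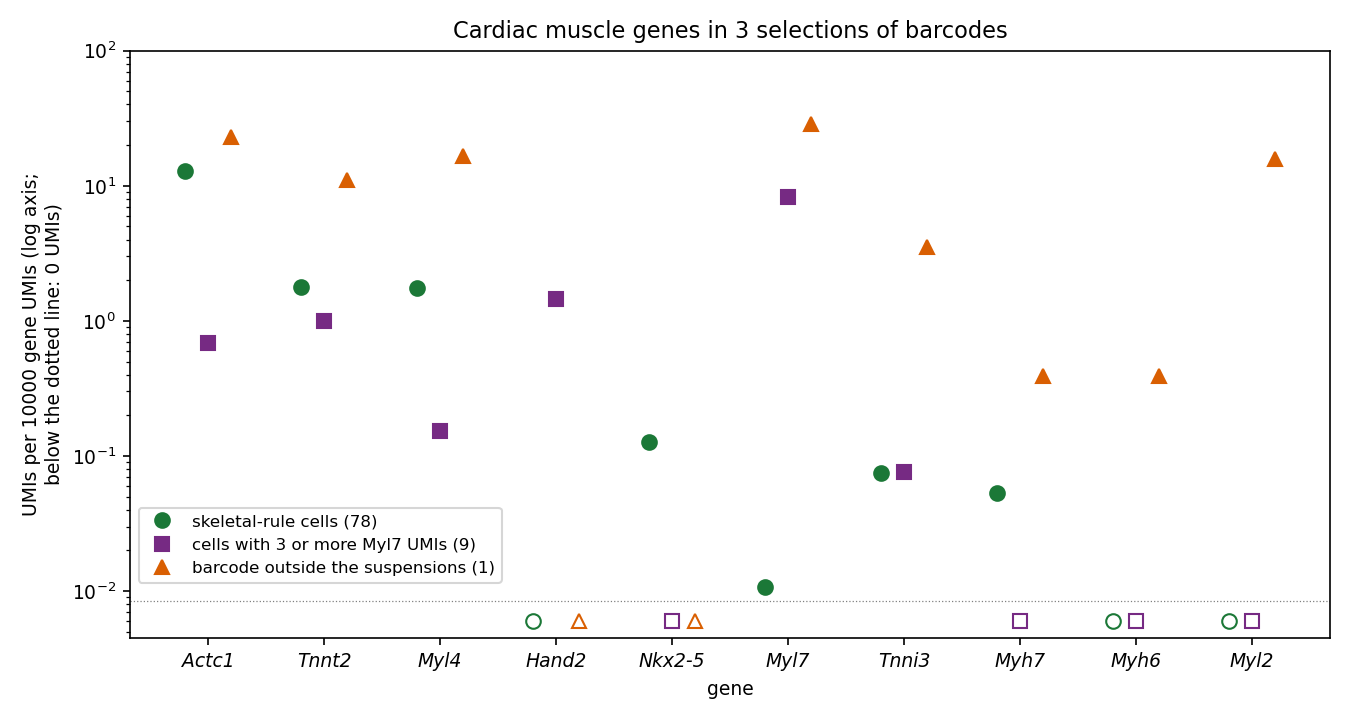
Level of each member (UMIs per 10000 gene UMIs, log axis) in the 78 cells that met the skeletal rule (circles), the 9 annotated cells with 3 or more Myl7 UMIs (squares) and the 1 barcode outside the suspensions that met the heart rule (triangles); open symbols below the dotted line had 0 UMIs. The members other than Hand2 and Nkx2-5 are highest in that barcode, where Myl2 reached 15.7, while Myl2 and Myh6 had no UMI in the other selections.

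The remaining members were rare, and their shares were set beside those of lineages that should lack them. Tnni3 was in 4.66% of Myoblast/Cardiomyocyte cells (3.16 to 6.58) and in 4.90% of red blood cells (2.38 to 8.83), which were deeper. Thinned to 5000 UMIs a cell, it was in 0.781% of the former and 0% of the latter. It was in 1 of 532 CNS Neuron cells and 0 of 502 Neuroectoderm/Glia cells, and in 1.29% of all cells outside the type. Myl7 was in 2.02% of Myoblast/Cardiomyocyte and 2.94% of red blood cells, and after the same thinning in 0.781% and 0%. Thinned to 2000 UMIs a cell, Myl7 was in 0.311% and 0.493%, so the order depended on the depth chosen. Myh7 had more UMIs in Neuroectoderm/Glia (18 in 15 cells) than in Myoblast/Cardiomyocyte (11 in 7 cells), and 0 in red blood cells. Myh6 never had more than 1 UMI in a cell. Myl2 had 4 UMIs in Gut Mesenchyme/Amniotic Mesoderm, 4 in Neuroectoderm/Glia, 2 in Mesodermal Progenitor and 0 in 644 Myoblast/Cardiomyocyte cells, which allows a share of cells with a UMI of up to 0.466% (exact 95% upper limit 0.571%). By contrast Actc1 had 1 UMI in the 204 red blood cells and Tnnt2 and Nkx2-5 had 0.

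Some members were also found in shallow barcodes. Barcodes with at least 100 but under 300 gene UMIs, which are shallower than every annotated cell, numbered 53821 beyond the suspension matrices, and in them Actc1 had 386 UMIs and Hand2 106. Myl4 had 38, Tnnt2 34, Tnni3 11 and Myl7 7 there, Myh7 had 2, Myh6 and Myl2 1 each, and Nkx2-5 none. Myog had 262 in the same barcodes.

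Founders and F1 embryos were compared over the summed counts of the 4 suspensions. In Myoblast/Cardiomyocyte, edgeR's quasi-likelihood test called 0 of 11260 genes (0% called), with 1049 at an unadjusted p under 0.05, while DESeq2 called 36. None of the 5 members that passed the filter on low counts (Actc1, Tnnt2, Myl4, Hand2 and Nkx2-5) was called by either tool, and the other 5 were too low to be tested. Over the 13 types with at least 20 cells in every suspension, 0 of 11 member and type pairs were called, against 0.753% of all 99241 gene and type tests. Some of the 11 pairs passed the filter on low counts only through F1 and are described further below. No gene of the marker lists was called by edgeR in Myoblast/Cardiomyocyte.

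Actc1 in this type had a level of 7.89 (1414 UMIs) in the founder F0_8 and 1.42 (301) in the founder F0_9, against 0.798 (328) in F1_1 and 0.911 (399) in F1_mix. Both founders lay above both F1 suspensions, and F0_8 lay far above the rest. The log2 difference (F1 minus founder) was -2.43 ± 0.65 (SE), with an adjusted p of 0.333 in edgeR. Tnnt2 was 1.15 (207 UMIs), 0.184 (39), 0.143 (59) and 0.0754 (33) in the same order, again with no overlap, and differed by -2.58 ± 0.74 with an adjusted p of 0.372. The exact two-sided permutation test of the levels gave p = 0.333 for each of the 2 genes, the smallest that 2 against 2 allows. How many of all genes tested had no overlap was not counted. F0_9 was closer to F1_1 than to F0_8 for both genes. Without F0_9, edgeR called Actc1 (-3.20, adjusted p 9.54e-09), Tnnt2 (-3.40, 3.31e-05) and Myl4 (-3.74, 0.000224), with 1 founder left. Without F0_8, the difference in Actc1 was -0.72 with an adjusted p of 0.0253, and that in Tnnt2 was -0.74 and not called.

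Myl4 was 1.39 (250 UMIs), 0.109 (23), 0.165 (68) and 0.0457 (20), so F0_9 lay among the F1 suspensions. Its difference was -2.80 ± 0.99 with an edgeR adjusted p of 0.461. Hand2 was 0.457 (82 UMIs), 0.184 (39), 0.297 (122) and 0.516 (226), and the groups overlapped at a difference of 0.38 ± 0.40 and an adjusted p of 0.810. Nkx2-5 was 0.0446 (8 UMIs), 0 (0), 0.0219 (9) and 0.0571 (25), with a difference of 0.93 ± 0.99 and an adjusted p of 0.810. Both of these factors had their highest level in F1_mix, whereas Actc1, Tnnt2 and Myl4 had theirs in F0_8.

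**Figure D4:**
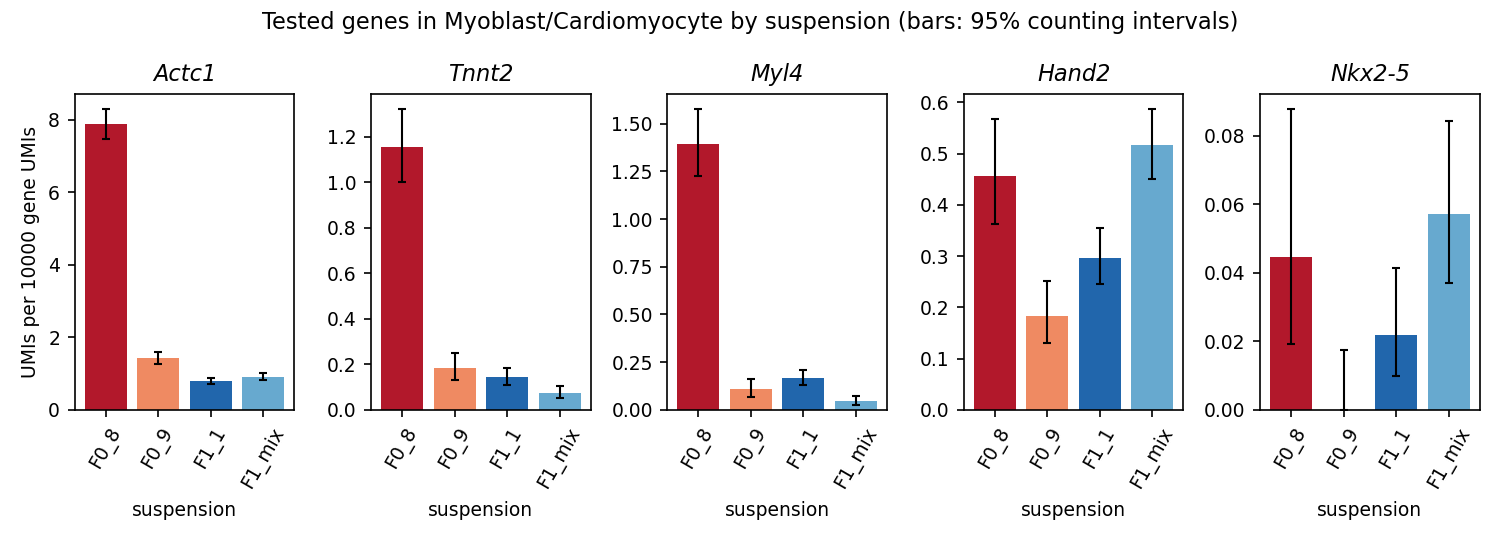
Level of Actc1, Tnnt2, Myl4, Hand2 and Nkx2-5 (bars, UMIs per 10000 gene UMIs, 1 panel a gene with its own axis from 0) in the Myoblast/Cardiomyocyte cells of each suspension, with error bars for exact 95% Poisson intervals. F0_8 is highest for Actc1, Tnnt2 and Myl4, and for Hand2 and Nkx2-5 the founders and F1 suspensions overlap.

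Summed over all 10 members, the founders had levels of 11 (F0_8) and 1.93 (F0_9) and the F1 suspensions 1.48 (F1_1) and 1.65 (F1_mix), a founder mean of 6.47 ± 6.43 and an F1 mean of 1.56 ± 0.12 (SD, n = 2 each). The exact two-sided permutation test gave p = 0.333, the smallest that 2 against 2 allows. The share of cells of the type that met the skeletal rule was also highest in F0_8, but the groups overlapped, at 22.2% for F0_8 and 11.3% for F0_9, against 8.57% for F1_1 and 11.4% for F1_mix (exact permutation p = 0.667). With at least 1 of the 6 genes the groups did not overlap, at 28.3% and 19.1% against 12.9% and 18.2% (exact permutation p = 0.333), and with at least 3 they overlapped, at 15.2% and 6.09% against 3.81% and 6.82% (exact permutation p = 0.667). Without the cells that met the skeletal rule, the sums were 0.812, 0.290, 0.444 and 0.692, with means of 0.551 ± 0.369 for the founders and 0.568 ± 0.175 for F1 (exact permutation p = 1). Most of that remainder was Hand2, with 469 of 581 UMIs. Actc1, taken by itself, was also lower in F1 there, with 7 UMIs in F0_8 and 8 in F0_9 against 5 in F1_1 and 2 in F1_mix, levels of 0.0541 and 0.0446 against 0.0137 and 0.00529. There it passed the filter on low counts only through the founders, where it is high. Its log2 difference of -2.30 is therefore a description with no test. The skeletal contractile list had the same sign as Actc1, with a median log2 difference of -2.24 over 13 genes tested, against -0.00 over all genes. The median was -1.52 over 5 shared muscle genes, -0.59 over 13 sarcomere and calcium handling genes and -0.40 over 9 skeletal regulators. For lists of other cell types the median was -1.34 over 2 smooth muscle genes, -1.18 over 4 neuron genes, 0.45 over 5 genes of limb and branchial mesenchyme and 2.36 for the only sympathetic neuron gene tested, and their part in the result was not tested. It was -5.32 over 4 red blood cell genes, where a single cell of F0_9 held 15491 of that suspension's 15637 UMIs of the list, and without this cell the difference in Actc1 was -2.43. Over 7 cardiac regulators the median was -0.22, with genes on both sides, such as Mef2c at -1.52 and Gata4 at 1.44.

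Outside this type 6 pairs of member and type passed the filter on low counts. Of these, Myl7 in Ependymal Cell, Actc1 in Hepatocyte and Myl4 in Gut Mesenchyme/Amniotic Mesoderm passed it only through the F1 suspensions, where they are high. Their values are given as a description with no test. Myl7 in Ependymal Cell was 0 in the founder F0_8 and 0.0473 in the founder F0_9, against 0.662 in F1_1 and 0.595 in F1_mix, a log2 difference of 4.69. A single cell held 27 of the 28 UMIs of F1_1 and another 26 of the 29 of F1_mix, both with Wt1, Upk3b and Tcf21. Actc1 in Hepatocyte was 0.137, 0.0482, 0.461 and 1.15, from 5, 1, 13 and 39 UMIs, a difference of 2.84. The 39 UMIs of F1_mix came from 2 cells, with 29 and 10. The other 4 pairs were Hand2 in Chondrocyte (1.04, edgeR adjusted p 0.376), Gut Mesenchyme/Amniotic Mesoderm (-0.02, 0.975) and Mesodermal Progenitor (0.29, 0.709), and Myl4 in Gut Mesenchyme/Amniotic Mesoderm (1.27, 0.336).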

How the data were processed

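Cells of 4 suspensions were tagged by oligo (CellPlex), captured with the 10x 3′ v3.1 chemistry and sequenced as 1 gene expression library. The counts deposited by the authors are raw UMI counts per gene and barcode, made with Cell Ranger (7.2.0 in the file headers and the paper's list of software, while its analysis methods name another version) on mm10 with EGFP added. Cell types were taken from the deposited annotation, which followed SoupX, DoubletFinder and RECODE in the authors' hands, so doublets had been removed before deposit and no further caller was run. The annotation lists 5678 of 6006 barcodes, while 3 of the stated limits, under 5% mitochondrial UMIs with over 200 UMIs and 200 genes, keep 4335 of all barcodes in the deposited counts. The stated limit on ribosomal RNA was not applied here. In these counts 1410 annotated cells, 528 of them among the 543 Hepatocyte cells, had 5% or more. Columns of other per-cell values were not used.

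The members and the gene lists were chosen with earlier results of these data known. The genes named were the members and, for each list, those with the most UMIs. The written rule named list genes by their UMIs in cells meeting the heart rule, and with no such cell it was void, so the cells meeting the skeletal rule were used in their place.

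Counts were summed per suspension and type, filtered with filterByExpr, scaled by TMM and tested with edgeR 4.0.16 (glmQLFit, glmQLFTest) in R 4.3.3, with Benjamini-Hochberg adjustment over all genes tested. DESeq2 1.42.0 was the alternative. The fit was tested on simulated data. F1_mix is a pool of 2 embryos, and p-values measure only the spread between these suspensions. Cells were not treated as replicates, and a cell type against the rest was not tested. Single values were compared by an exact two-sided permutation test. Other tools were Python 3.11.15, numpy 2.4.6, pandas 2.3.3, scipy 1.17.1 and matplotlib 3.10.9. Sequences and positions are those of RefSeq GRCm38.p6, and all 10 members matched by symbol. Alternative cell rules, filters, tools and left-out suspensions are given in the closing section.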

Additional observations from a re-analysis of the deposited data

Results flagged for a closer look

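The raw matrix, which holds every barcode seen whether or not it was assigned to a suspension, contained 1 barcode that met the heart rule. It held UMIs of 5 of the 6 heart genes and 252 UMIs of the members, in a total of 25428 gene UMIs with 1.36% from mitochondrial genes. Myl7 had 73 UMIs in it, Actc1 58, Myl4 42, Myl2 40, Tnnt2 28, Tnni3 9, Myh6 1 and Myh7 1, and Hand2 and Nkx2-5 had none. The barcode drew attention because it lies outside the data used above and holds more Myl2 than all 5678 annotated cells together (10 UMIs). Other genes of the sarcomere and calcium handling lists were there too, with 47 UMIs of Tpm1, 35 of Myl3, 28 of Tnnc1, 20 of Smpx, 5 of Csrp3 and 3 of Pln. The 6 genes of the skeletal rule had none, while Twist1 had 26 UMIs, Tnni1 19, Tubb3 9 and Pax3 8. Its tagging oligos came from several suspensions, with 39.5% from F0_8, 38.7% from F1_1, 21.2% from F0_9 and 0.56% from F1_mix. In annotated cells the leading oligo had a median of 97.4%, and in the 585 unassigned barcodes of 5000 or more gene UMIs a median of 64.8%, so the barcode cannot be given to a suspension and it entered no comparison.

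Actc1 differed between founders and F1 in opposite directions in 2 cell types. The log2 difference (F1 minus founder) was -2.43 in Myoblast/Cardiomyocyte, where both founders lay above both F1 suspensions, and 2.84 in Hepatocyte, where both F1 suspensions lay above both founders. The first did not pass edgeR's test after adjustment, the second passed the filter on low counts only through F1 and is a description, and the difference between the types was not tested. The Hepatocyte values rest on 58 UMIs in 11 of 543 cells, of which 528 had 5% or more mitochondrial UMIs.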

How the results depend on the processing

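No paired analysis was possible because the suspensions of the founder and F1 groups share no embryo, litter or number that pairs them. The heart rule was met by 0% of annotated cells as defined. At least 4 of 6 genes, leaving out Myh7, thinning to 2000 or 5000 UMIs and the limit of 5% mitochondrial UMIs also gave 0%. With no cell meeting the rule these settings could give nothing else, since each only drops cells, genes or UMIs or asks for more genes. The settings that could differ gave 0% over all assigned barcodes and 0.0704% of annotated cells with at least 2 of 6 genes. The skeletal rule was met by 12.1% of the type with 2 genes, 18.2% with 1 and 6.99% with 3, settings chosen after seeing the data, and these cells held 99.1%, 99.6% and 95.6% of the type's Actc1. The F1 mean of the summed members fell from 1.56 to 0.568 without the cells meeting the skeletal rule, and the founder mean from 6.47 to 0.551. With these cells the log2 difference in Actc1 was -2.43. Without them it was -2.30, from 22 UMIs of a gene that passed the filter on low counts only through the founders. That value is a description with no test.

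Genes called between founders and F1 in Myoblast/Cardiomyocyte numbered 0 in edgeR with TMM (1049 at an unadjusted p under 0.05), 36 in DESeq2, 133 of 16070 with no filter beyond 1 count, 12 without the cells meeting the skeletal rule and 0 to 346 with 1 suspension left out (47 without F0_8, 346 without F0_9). With no filter, Actc1 (adjusted p 0.0194) and Tnnt2 (0.0341) were called. Over the alternatives the adjusted p ran from 9.54e-09 to 1 for Actc1, from 3.31e-05 to 1 for Tnnt2, from 0.000224 to 1 for Myl4, from 0.244 to 1 for Hand2 and from 0.320 to 1 for Nkx2-5. Hand2 turned to -0.16 without F0_9 and -0.07 without F1_mix, and Nkx2-5 to -0.16 without F0_9. With 1 suspension left out, Actc1 ran from -3.20 to -0.72, Tnnt2 from -3.40 to -0.74, Myl4 from -4.00 to -0.04, Hand2 from -0.16 to 1.16 and Nkx2-5 from -0.16 to 6.83, where the lone sample of a group is assumed to vary like the other group. The EGFP level of cells meeting the heart rule has no value, since no cell met it. In 644 cells, a population below the exact 95% upper limit of 0.571% of the type could be missed. The causes of these changes were not tested.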

Other observations

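EGFP was detected in 78 of the 78 Myoblast/Cardiomyocyte cells that met the skeletal rule. Its level per 10000 gene UMIs reached 14.9 in the founder F0_8 and 10.7 in the founder F0_9, with 24.0 for F1_1 and 9.66 for F1_mix, against 10.7, 9.19, 24.9 and 9.88 in the other cells of the type. F1_1 was highest on both sides of the split.

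Cells annotated as Hepatocyte held 58 Actc1 UMIs, and 3 of them had 3 or more. The F1_1 cell was the one with Myl7 described above. The 2 of F1_mix, with 3585 and 2914 gene UMIs, held 10 and 29 of Actc1, 32 and 36 of Ttn and 3 each of Myog, and the shallower one also held 11 of Myl1 and 2 of Mymk. An Ependymal Cell of F1_1 with 22722 UMIs held 34 of Actc1 beside 5 of Gata4.

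Genes outside the members and lists that had the highest ratio of level in the cells meeting the skeletal rule to the other cells of the type were Kcnk13 (106), Palmd (80.6), Rbm24 (70.9), Vgll2 (62.5), Hspb2 (62.4) and Atp2a1 (60.2), the calcium pump of fast skeletal muscle. They were chosen by these values, and the ratios describe the 78 and 566 cells only.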
